A study of Mus musculus with 30 samples.

Results

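The receptors through which blood progenitors sense growth factors were followed in mouse bone marrow before and after myeloid disease. The set holds 9 genes chosen by name, Kit, Flt3, Csf3r, Csf2ra, Csf2rb, Csf2rb2, Il3ra, Il6ra and Il6st, and all 9 were found among the 11740 genes measured in sorted progenitors and among the 11294 measured in whole marrow. RNA sequencing of 24 libraries was used, from a series of 30 that models myeloid neoplasms arising after exposure to an alkylating agent. All mice were C57BL/6. The LSK cells (lineage-negative, Sca-1-positive, Kit-positive cells, the marrow compartment of stem and multipotent progenitor cells) came from 4 groups of 3 libraries, sorted roughly 2 months after transplant and before disease where a transplant was made. WT was wild type marrow without transplant, shRNA or ENU (N-ethyl-N-nitrosourea, an alkylating mutagen). WT_X was wild type marrow carrying a Luciferase shRNA, transplanted into wild type recipients without ENU. EAP was marrow with Egr1 and Apc haploinsufficiency (Egr1+/-, Apc del/+) and a Trp53 shRNA, transplanted without ENU, and EAP_E was the same with ENU given to donor and recipient. Whole bone marrow gave 6 libraries from mice with MDS (myelodysplastic syndrome) and 6 from mice with AML (acute myeloid leukaemia). All of these mice had received Egr1+/-, Apc del/+ marrow. Each library is spoken of as a separate mouse, which the sources do not state throughout. The 6 MDS mice carried the Luciferase shRNA with ENU to donor and recipient. The AML mice carried the Trp53 shRNA, and ENU had gone to donor and recipient in 3 of them (AML 1, 4 and 5), to the recipient in 1 (AML 6) and to neither in 2 (AML 2 and 3), so knockdown and disease cannot be told apart in marrow.

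Kit and Flt3 are receptor tyrosine kinases for stem cell factor and Flt3 ligand, and act mainly on stem and early progenitor cells. Csf3r is the receptor for granulocyte colony-stimulating factor and marks the neutrophil lineage. Csf2ra and Il3ra are the ligand-binding chains for GM-CSF and interleukin-3, and pair with the common beta chain encoded by Csf2rb. Mice have a further beta chain, Csf2rb2, which serves interleukin-3 alone. Il6ra binds interleukin-6, and Il6st (gp130) is the signalling chain shared by the whole interleukin-6 family. The cytokine receptors have no kinase of their own and act through JAK kinases and STAT factors.

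In LSK cells none of the 9 receptors passed the test (limma on log2(value + 1), Benjamini-Hochberg adjusted p under 0.05) in any of 4 comparisons. In whole marrow none passed between AML and MDS either, although 7 of 9 were lower in AML and Csf2rb missed the threshold by little (adjusted p = 0.0624). The marrow count changes when 1 library (AML 1) is left out, and the LSK count when 3 libraries are left out together, so these libraries are described first.

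Trp53, the gene targeted by the shRNA, checked the labels. It ranged from 213 to 370 in the 6 LSK libraries without its shRNA and from 65.5 to 173 in the 6 with it, without overlap, and from 43.2 to 97.9 in MDS and from 23.0 to 58.0 in AML, with overlap. Egr1 and Apc did not separate LSK libraries by their labelled haploinsufficiency: Egr1 ranged from 133 to 212 in WT and WT_X and from 57.7 to 840 in EAP and EAP_E, and Apc from 4.23 to 13.4 and from 5.41 to 11. EAP 1 carries a label of wild type marrow for its transplant beside its Egr1, Apc and Trp53 labels, and its Trp53 value was the lowest of the 12.

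LSK values summed to 808377 to 1437201 per library and marrow values to 818379 to 1131202. The deposited values, named CPM, were therefore handled as a normalised signal, and the sums do not show which scaling was used. Depth is unknown for LSK cells, while 99.99% or more of the marrow values in each library lie within 0.05 of a whole multiple of 1 step. If that step is 1 read, an inference from the values, they stand for 17657724 to 21988008 reads per library; read numbers given below rest on it and no test uses them. Of the markers chosen to check the tissue labels, Cd34 ranged from 981 to 1627 and the T cell gene Cd3e from 0 to 5.51 across LSK libraries. Cd3e does not stand for its whole list: the T and NK markers (11 of 12 measured) summed to 569 to 2120. The B markers (6 of 9 measured) summed to 75.8 to 397. Libraries WT 2, WT_X 3 and EAP 1 had the highest summed values of their groups and low values for long transcripts. Their difference from the other 2 libraries of their group correlated with transcript length at rho = -0.48, -0.45 and -0.57 across 9348 genes, a description across genes that are not independent. EAP 1 also had the highest Mpo, a granule enzyme of myeloid progenitors (14566, against 1725 to 6951 in the other 11 libraries). In marrow, AML 3 stood apart by its correlation with the other libraries (median r = 0.637, against 0.844 to 0.970).

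Kit (chr5:75574916-75656722, plus strand, GRCm38) and Flt3 (chr5:147330741-147400489, minus strand) were the receptors with the highest values in untransplanted LSK cells. Kit protein was used to sort these cells, so its presence in them is not a finding. Per kilobase of transcript, mean values in WT were 153 ± 75.3 for Flt3 and 85.2 ± 47.7 for Kit (SD, n = 3), followed by Csf3r at 39.9 ± 5.67 and Csf2ra at 32.2 ± 5.01. On the same scale Il3ra stood at 7.18 ± 3.53, Csf2rb at 4.94 ± 2.17, Il6st at 2.55 ± 1.36, Csf2rb2 at 1.12 ± 0.471 and Il6ra at 0.491 ± 0.429. Flt3 led this order in all 4 LSK groups, and Csf2rb2 and Il6ra closed it in all 4. No group of LSK libraries was separated from its neighbour in the order of means for any of the 9 genes: the ranges of neighbouring groups always overlapped.

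**Figure D1:**
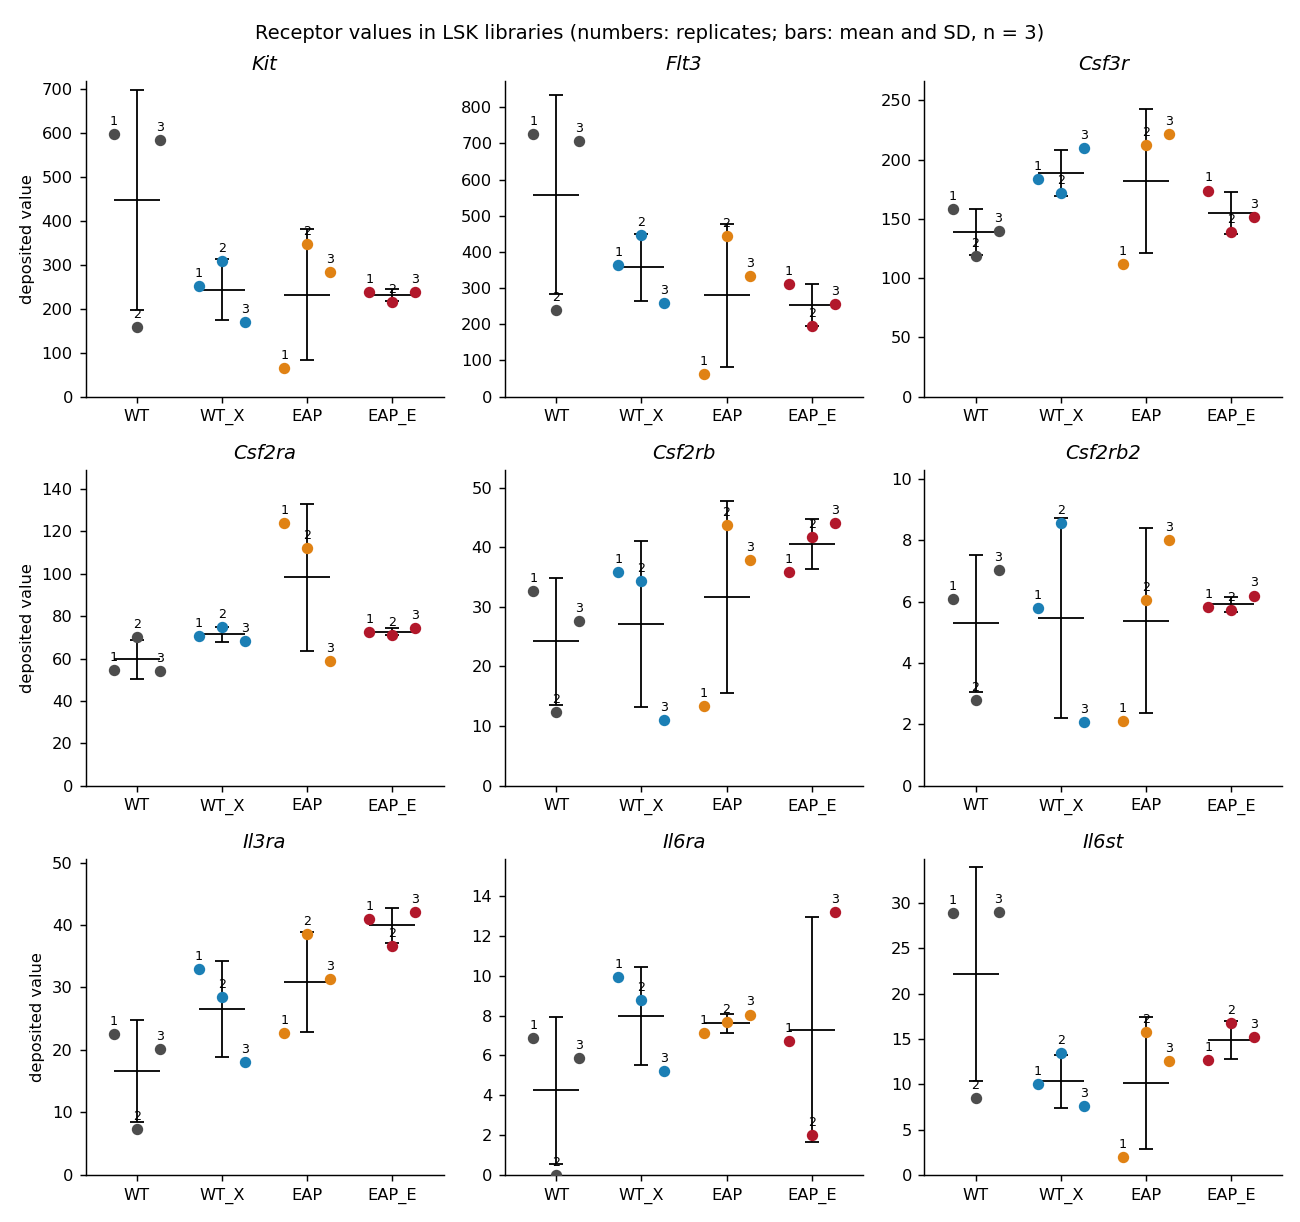
Deposited values of the 9 receptors (vertical axes, linear, from 0) in the LSK groups WT, WT_X, EAP and EAP_E; points are libraries with their replicate number, horizontal lines the mean and bars the SD of 3. WT 2, WT_X 3 and EAP 1 lie lowest of their group for Kit, Flt3, Csf2rb, Csf2rb2, Il3ra, Il6ra and Il6st. Csf2ra in EAP 1 (124) is instead the highest of all 12.

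Kit values were 598, 158 and 584 in WT, 251, 308 and 170 in WT_X, 65.3, 348 and 283 in EAP, and 237, 215 and 239 in EAP_E. WT 1 and WT 3 were high, and the remaining 10 libraries, WT 2 among them, lay at 348 or below. Flt3 had 727, 240 and 706 in WT, 365, 446 and 260 in WT_X, 61.7, 445 and 334 in EAP, and 310, 195 and 255 in EAP_E. Its libraries had the same order as for Kit within WT, WT_X and EAP, and another order in EAP_E. Between WT_X and WT the log2 difference was -0.69 ± 0.62 for Kit (SE, limma adjusted p = 0.919) and -0.51 ± 0.66 for Flt3 (adjusted p = 0.957). Both differences were smaller than the spread within WT, and all groups overlapped.

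Il6st (chr13:112464070-112510086, plus strand) had the same shape at a lower level, with 28.9, 8.50 and 29.0 in WT, 9.99, 13.4 and 7.56 in WT_X, 1.92, 15.8 and 12.6 in EAP, and 12.7, 16.8 and 15.2 in EAP_E. WT 1 and WT 3 were again the highest of the 12 libraries. The log2 difference between WT_X and WT was -0.89 ± 0.62 (SE, limma adjusted p = 0.850). Its partner Il6ra (chr3:89864059-89913196, minus strand) had 6.87, 4.30e-08 and 5.85 in WT, 9.92, 8.79 and 5.23 in WT_X, 7.11, 7.67 and 8.05 in EAP, and 6.70, 1.98 and 13.2 in EAP_E. These values, near the lower end of the table, showed no order of groups beyond the spread.

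Without WT 2, WT_X 3 and EAP 1, a choice made after seeing the data, Kit was lower in WT_X than in WT by a log2 difference of -1.08 ± 0.16 (limma adjusted p = 0.0243) and Il6st by -1.25 ± 0.21 (adjusted p = 0.0270). Flt3 stood at -0.83 ± 0.23 and did not pass (adjusted p = 0.0732). That fit called 490 of 11730 genes, where the fit on all libraries called 3. It compared only the other 2 libraries of WT_X with the other 2 of WT. With all libraries and a term for these 3 in their place, neither Kit (adjusted p = 0.159) nor Il6st (adjusted p = 0.144) passed, and 275 genes did. WT_X libraries had more of the summed markers of myeloid progenitors (all 8 listed genes measured, 4311 to 7824) than WT libraries (2394 to 3173), and the part of such cells in the receptor values was not tested.

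**Figure D2:**
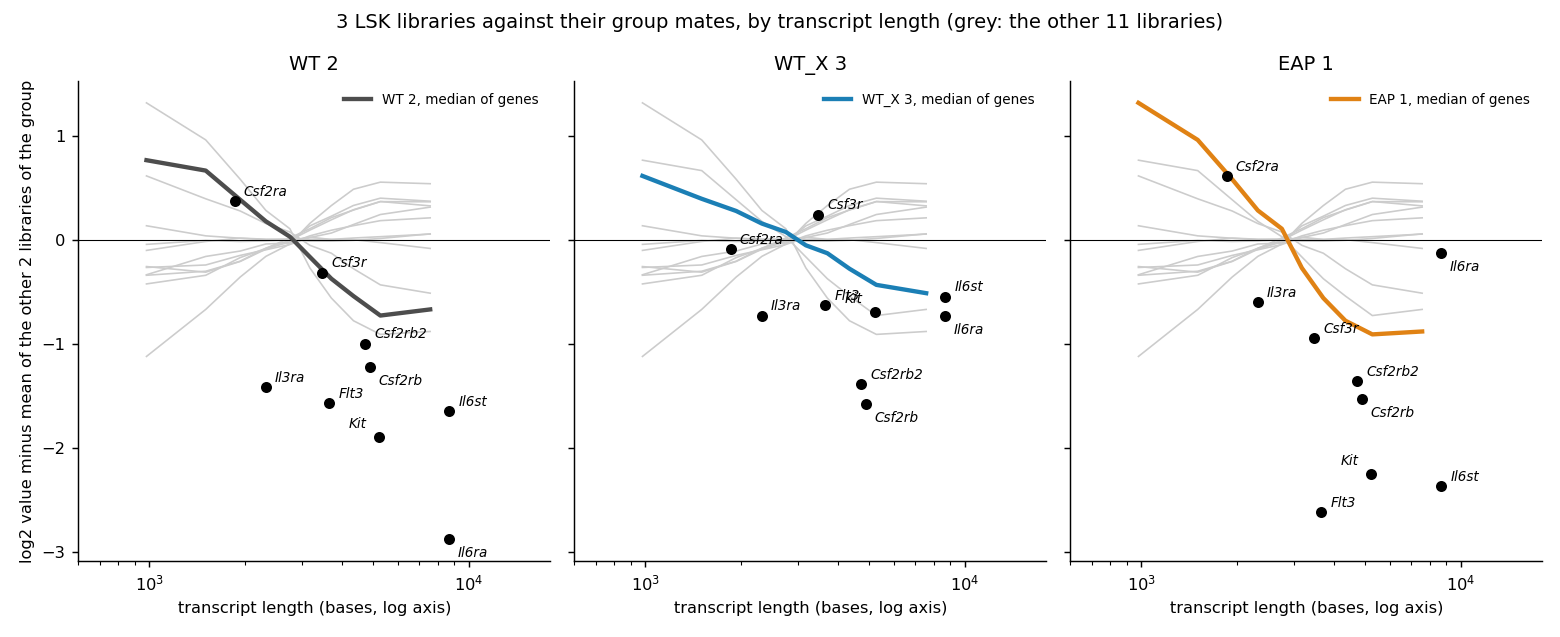
Log2 value of WT 2, WT_X 3 and EAP 1 minus the mean of the other 2 libraries of the group (vertical axis) against transcript length in bases (log axis); coloured lines are medians over bins of about 935 genes, grey lines the same for the other 11 libraries, and black points the 9 receptors. Medians fall with length in the 3 libraries, to -0.67, -0.52 and -0.88 in the longest bin; Kit lies below the line in all 3 (-1.90, -0.70 and -2.25), and the short transcript Csf2ra lies close to it in WT 2 and EAP 1.

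The 3 libraries also lay low for most receptors, though not in the order of transcript length. Against its group mates Kit was lower by log2 differences of -1.90 in WT 2, -0.70 in WT_X 3 and -2.25 in EAP 1, while the median of the 935 longest transcripts was lower by -0.67, -0.52 and -0.88. For Flt3, whose transcript has 3657 bases against 5241 for Kit, the differences were -1.57, -0.63 and -2.62. Csf2ra, the shortest at 1849 bases, was at 0.37, -0.09 and 0.61. Il3ra, with 2315 bases, was nonetheless at -1.42, -0.73 and -0.60. Il6ra, with 8639 bases, was at -2.88, -0.73 and -0.13, and its EAP_E 2 and EAP_E 3 libraries stood at -1.81 and 1.57 against their mates. With each library's trend on length removed, a further choice made after seeing the data, no receptor passed in any of the 4 LSK comparisons. Whether RNA quality, the cells sorted or both set these values was not tested.

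Of the interleukin-3 and GM-CSF receptor chains, Il3ra, Csf2rb and Csf2rb2 were low in LSK cells. Csf2ra was not, at 32.2 ± 5.01 per kilobase in WT and 53.2 ± 18.8 in EAP (SD). Il3ra (chr14:14346275-14356011, plus strand) had 22.5, 7.30 and 20.1 in WT, 33.0, 28.5 and 18.1 in WT_X, 22.7, 38.6 and 31.4 in EAP, and 41.0, 36.7 and 42.1 in EAP_E. The 3 EAP_E libraries lay above all WT and WT_X libraries and overlapped with EAP. The log2 difference between EAP_E and WT_X was 0.61 ± 0.39 (SE, limma adjusted p = 1.000), and between WT_X and WT 0.74 ± 0.39 (adjusted p = 0.748).

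Csf2rb (chr15:78325752-78353847, plus strand) had 32.7, 12.3 and 27.6 in WT, 35.9, 34.4 and 11.1 in WT_X, 13.4, 43.8 and 37.8 in EAP, and 35.9, 41.7 and 44.1 in EAP_E. The lowest EAP_E library stood just above the highest WT_X library, and the difference of 0.72 ± 0.53 on the log2 scale did not pass (limma adjusted p = 1.000). Csf2rb2 (chr15:78282507-78305721, minus strand) had 6.08, 2.78 and 7.03 in WT, 5.79, 8.57 and 2.08 in WT_X, 2.10, 6.05 and 8.0 in EAP, and 5.82, 5.73 and 6.20 in EAP_E. Its groups overlapped throughout. Beside the higher Il3ra and Csf2rb of EAP_E stood a myeloid progenitor marker sum of 8802 to 12508, against 4311 to 7824 in WT_X. The monocyte and macrophage sum (8 of 11 markers measured) was 203 to 258, against 51.1 to 171 in WT_X. Within it C1qa, C1qb and C1qc were lower in EAP_E than in WT_X (C1qb 2.03 to 5.76, against 10.6 to 14.4). EAP 1 had the highest myeloid progenitor sum (19245) beside the lowest Il3ra and Csf2rb of its group. The part of these cells was not tested.

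Csf3r (chr4:126024550-126044440, plus strand) had 158, 119 and 140 in WT, 184, 172 and 210 in WT_X, 112, 212 and 222 in EAP, and 174, 139 and 152 in EAP_E. The 3 WT_X libraries lay above the 3 WT libraries, with a log2 difference of 0.45 ± 0.27 (SE, limma adjusted p = 0.789). Csf2ra (chr19:61223957-61228429, minus strand) had 54.7, 70.3 and 53.9 in WT, 70.7, 75 and 68.3 in WT_X, 124, 112 and 58.9 in EAP, and 72.7, 71.3 and 74.2 in EAP_E. EAP 1 and EAP 2 were the highest, EAP 3 lay near WT, and the EAP to WT_X difference of 0.39 ± 0.26 did not pass (limma adjusted p = 1.000).

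Counted over the set, 0 of 9 receptors passed between WT_X and WT, where 0.0256% of the 11730 genes tested did, and 1 of 9 (Csf3r) had groups that did not overlap, against 16.1% of all genes. Between EAP and WT_X 0 of 9 passed, against 0.0256% of genes, 0 of 9 had groups apart, against 6.98%, and the largest difference was that of Flt3 at -0.73 ± 0.66. Between EAP_E and EAP 0 of 9 passed, as did 0% of genes, and 0 of 9 had groups apart, against 12.7%. Between EAP_E and WT_X 0 of 9 passed, against 0.0171% of genes, and 2 of 9 (Il3ra and Csf2rb) had groups apart, against 18.5% of all genes. No receptor reached an unadjusted p of 0.05 in these 4 comparisons, where 7.29% of genes did between WT_X and WT, 3.61% between EAP and WT_X, 5.26% between EAP_E and EAP and 3.21% between EAP_E and WT_X. WT_X and EAP each enter several of them, so the comparisons share libraries. For Kit and Flt3 the log2 difference between EAP_E and EAP was 0.30 ± 0.62 and 0.25 ± 0.66, while the means on the deposited scale went the other way, at 230 and 232 for Kit and 253 and 280 for Flt3. Without EAP 1 the log2 differences were -0.45 and -0.63, so their direction rests on the scale and on that library.

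Whole marrow of MDS mice had another order of receptors than LSK cells. Per kilobase of transcript Csf3r stood highest in MDS at 176 ± 92.5, then Csf2ra at 172 ± 49.0 and Csf2rb at 104 ± 21.1, while Kit had 14.1 ± 1.01 (SD, n = 6). In a tissue of mixed cells, fewer cells of a type and less RNA per cell cannot be told apart. LSK and marrow values were normalised separately, so levels are compared only within each table.

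**Figure D3:**
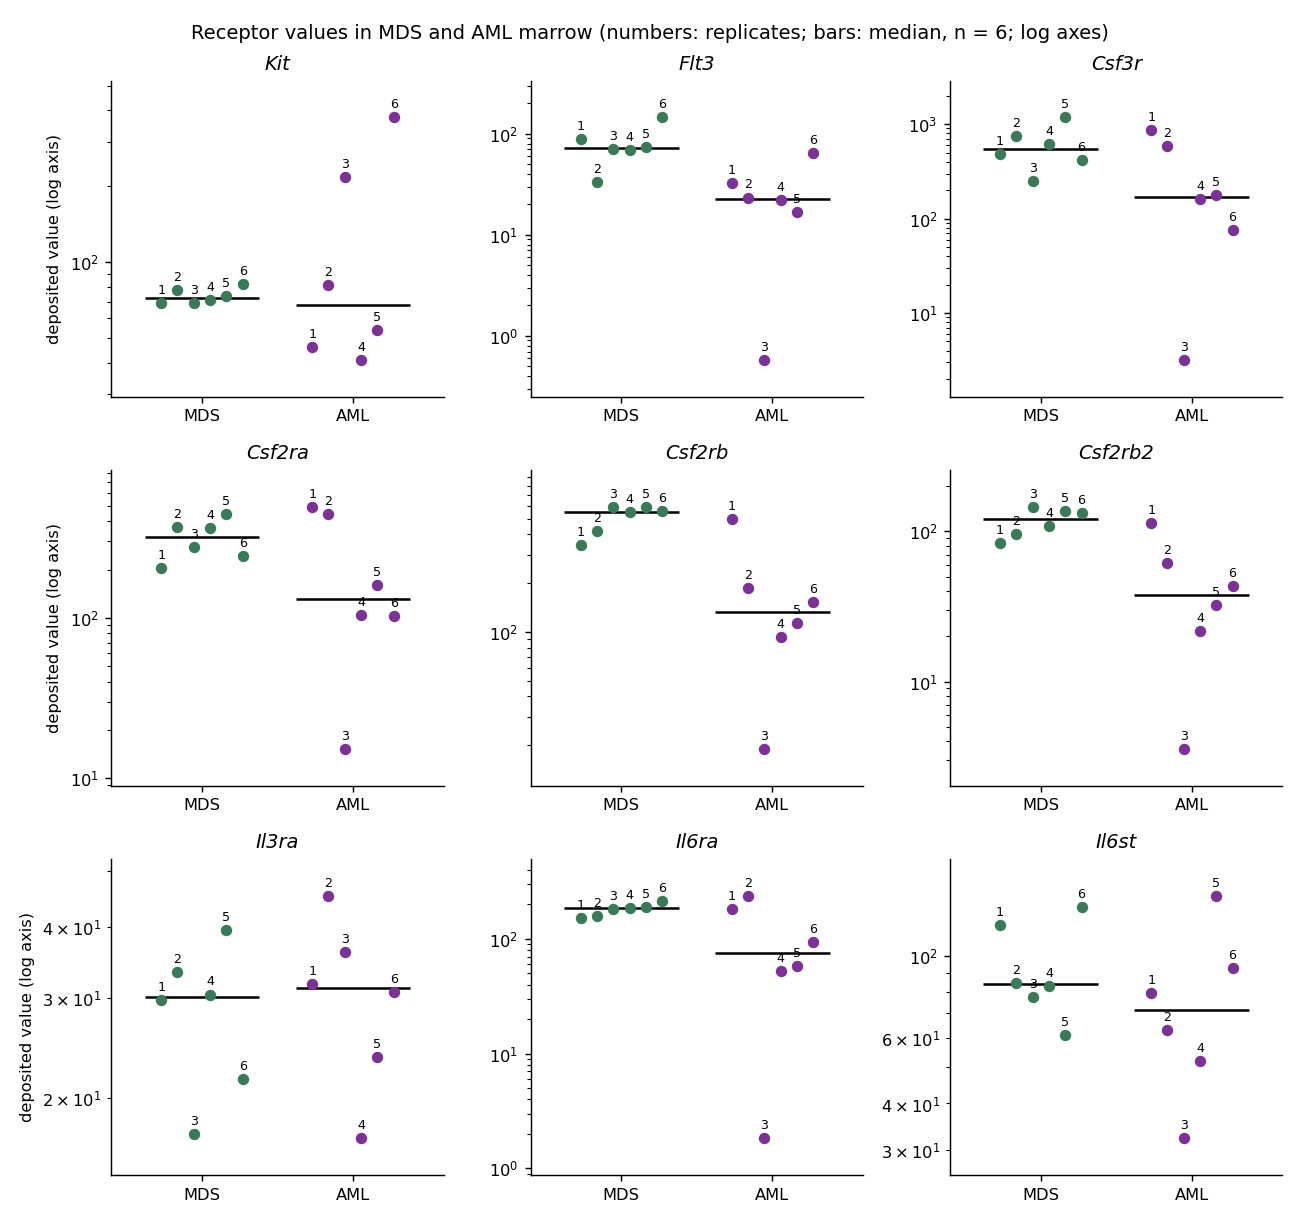
Deposited values of the 9 receptors (vertical axes, log scale) in marrow of 6 MDS and 6 AML mice; points are libraries with their replicate number and lines the median. AML values spread far wider than MDS values for Kit (41.0 to 375) and Csf3r (3.16 to 872); AML 3 lies lowest for 7 of the receptors and second highest for Kit.

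The beta chains had the smallest p-values of the 9 receptors. Csf2rb had 345, 417, 594, 547, 591 and 560 in the MDS libraries by number, and 501, 187, 18.8, 93.3, 114 and 153 in the AML libraries. AML 1 lay inside the MDS range, and the other 5 AML libraries lay below every MDS library. The log2 difference between AML and MDS was -2.05 ± 0.58 (SE, limma adjusted p = 0.0624). Csf2rb2 had 83.7, 96.1, 146, 109, 137 and 133 in MDS, and 114, 61.5, 3.54, 21.7, 32.3 and 43.3 in AML, with the same library inside the range and the same 5 below it. Its difference was -1.85 ± 0.60 (adjusted p = 0.0841). Without AML 1 both passed, Csf2rb at -2.46 ± 0.49 (adjusted p = 0.00925) and Csf2rb2 at -2.22 ± 0.55 (adjusted p = 0.0189). That fit called 2478 of 11292 genes in place of 360, so the 2 of 9 receptors passing were close to the share of all genes. Without AML 3 the differences were -1.53 ± 0.36 (adjusted p = 0.0505) and -1.29 ± 0.35 (adjusted p = 0.0640).

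The beta-chain genes are close copies on chromosome 15, so reads from one may be given to the other. Their coding sequences were identical at 95.2% of 2628 aligned bases. Of all stretches of 100 bases in the Csf2rb transcript, 7.0% occurred unchanged in Csf2rb2, and of stretches of 50 bases 18.4% did. The longest coding stretch that is the same in both, 242 bases, is shown because a read inside it cannot tell the genes apart. It lies within 1 exon of each gene, at chr15:78348577-78348818 on the plus strand in Csf2rb and at chr15:78284630-78284871 on the minus strand in Csf2rb2.
Csf2rb and Csf2rb2, shared coding stretch: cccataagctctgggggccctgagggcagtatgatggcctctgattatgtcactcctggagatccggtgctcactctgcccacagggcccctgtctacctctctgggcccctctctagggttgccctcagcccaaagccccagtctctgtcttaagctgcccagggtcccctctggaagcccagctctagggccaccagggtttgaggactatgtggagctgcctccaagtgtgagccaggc

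No source used here gives how such reads were counted, so the separate values of the pair are uncertain. The ratio of Csf2rb to Csf2rb2 ran from 3.04 to 5.32 over 12 marrow libraries (median 4.26) and from 3.93 to 7.27 over 12 LSK libraries (median 5.78). In marrow the pair kept this ratio from the highest library to AML 3, where Csf2rb2 rested on 74 reads.

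**Figure D4:**
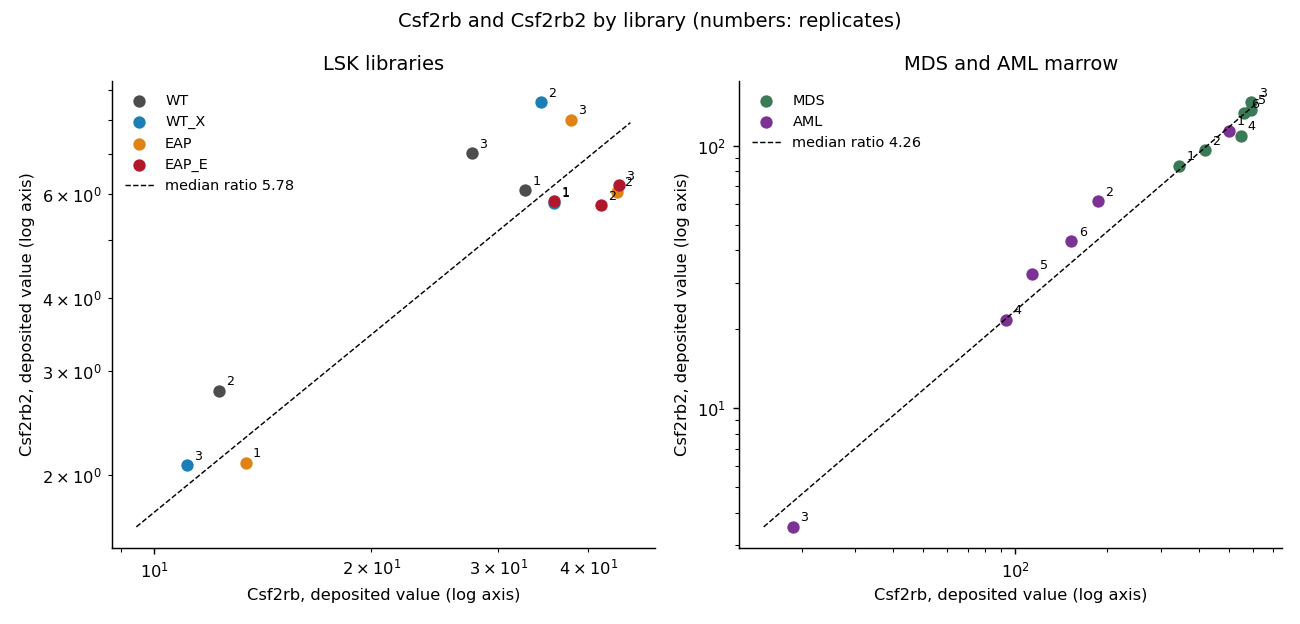
Csf2rb (horizontal, log axis) against Csf2rb2 (vertical, log axis) in LSK libraries and in marrow, with points coloured by group and numbered by replicate; the dashed line marks the median ratio of each table (5.78 and 4.26). Marrow points follow the line over the whole range, while LSK points fall into WT 2, WT_X 3 and EAP 1 at the lower left and the other 9 libraries at the upper right.

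Csf2ra, the alpha chain of the GM-CSF receptor, had 205, 368, 277, 364, 446 and 244 in MDS and 494, 441, 15.1, 104, 159 and 103 in AML. AML 1 and AML 2 were as high as the highest MDS libraries and the other 4 lay below all of them. The log2 difference was -1.18 ± 0.68 (SE, limma adjusted p = 0.251). Il3ra had 29.7, 33.3, 17.3, 30.4, 39.4 and 21.6 in MDS and 31.7, 45.3, 36.1, 17.0, 23.6 and 30.7 in AML, a difference of 0.09 ± 0.25 (adjusted p = 0.838). Its ranges nearly coincided, AML 3 included.

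Csf3r, the granulocyte colony-stimulating factor receptor, had 485, 740, 251, 611, 1177 and 421 in MDS and 872, 584, 3.16, 161, 177 and 74.8 in AML. AML 1 and AML 2 lay inside the MDS range and the other 4 below it, AML 3 with 66 reads. The log2 difference was -2.09 ± 1.04 (SE, limma adjusted p = 0.196), and without AML 3 it was -1.10 ± 0.59 (adjusted p = 0.254). Il6ra had 153, 158, 182, 187, 191 and 216 in MDS and 182, 238, 1.82, 52.4, 58.4 and 93.8 in AML. AML 2 lay above and AML 1 inside a narrow MDS range, the other 4 below it, and the difference was -1.65 ± 0.84 (adjusted p = 0.206). Without AML 3 it was -0.78 ± 0.35 (adjusted p = 0.186).

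Il6st had 121, 84.3, 77.3, 83.0, 61.1 and 135 in MDS and 79.3, 63.1, 32.2, 52.0, 145 and 92.6 in AML. The groups overlapped, and the log2 difference was -0.37 ± 0.32 (SE, limma adjusted p = 0.446). Among the AML libraries the signalling chain ranged from 32.2 to 145 and the binding chain Il6ra from 1.82 to 238.

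Flt3 had 87.8, 33.5, 70.8, 69.1, 73.5 and 145 in MDS and 32.7, 23.4, 0.574, 22.1, 16.7 and 64.7 in AML. AML 6 lay inside the MDS range and the other 5 below its lowest library, with 12 reads in AML 3. The log2 difference was -2.04 ± 0.72 (SE, limma adjusted p = 0.0999), and without AML 3 it was -1.34 ± 0.38 (adjusted p = 0.0701).

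Kit went separate ways in different AML mice. Its 6 MDS libraries were close together at 69.1, 78.0, 68.8, 71.3, 73.7 and 82.1, whereas the AML libraries had 46.2, 81.6, 217, 41.0, 54.1 and 375. AML 3 and AML 6 lay above every MDS library, AML 1, 4 and 5 below every one, and AML 2 just inside. The mean difference was 0.35 ± 0.48 on the log2 scale (SE, limma adjusted p = 0.639), and it was -0.05 without AML 6. The SD of Kit was 134 in AML and 5.28 in MDS.

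The 3 AML mice with ENU to donor and recipient, the exposure of the MDS mice, were compared with MDS separately. Kit was at 47.1 ± 6.57 in them and 73.8 ± 5.28 in MDS (SD, n = 3 and 6), with no overlap, a log2 difference of -0.64 ± 0.26 and a limma adjusted p of 0.311. Flt3 was at 23.8 ± 8.17 and 80.0 ± 36.7, again with no overlap, and differed by -1.63 ± 0.71 (adjusted p = 0.333). Csf2rb differed by -1.51 ± 0.67 (adjusted p = 0.335). The count was 0 of 9, as for 0% of the 11294 genes tested, and all 9 receptors were lower in AML on this scale. At an unadjusted p of 0.05 it was 3 of 9, against 14.8% of genes, and groups apart were 2 of 9, against 9.58%. Without AML 1 the same comparison called 684 genes and still none of the 9. No MDS mouse shared the exposures of the other 3 AML mice, so no such comparison was made for them.

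Over all 12 marrow libraries 0 of 9 receptors passed between AML and MDS, where 3.19% of the 11292 genes tested did, and the smallest of the 9 adjusted p-values was 0.0624. At an unadjusted p of 0.05 it was 3 of 9 (Csf2rb, Csf2rb2 and Flt3), against 29.3% of all genes. The median log2 difference of the 9 was -1.65, beside 0.04 for all genes tested. No receptor had groups that did not overlap, against 3.84% of genes. The count of genes called depended on single libraries of both groups: it was 360 with all, 0 or 1 without any 1 MDS library, 0 without AML 5 or AML 6 and 640 without AML 2. Leaving out AML 3, AML 4 and AML 5, whose B or T and NK marker sums were the highest, gave 0 genes called, and Csf2rb was then at -1.04 ± 0.35 (limma adjusted p = 0.166).

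Each AML library was therefore set against the 6 MDS libraries on its own. AML 1 had 2 of 9 receptors below the MDS range (Kit and Flt3), against 21.2% of all genes, and 1 above (Csf2ra), against 22.1%. AML 2 had 3 of 9 below (Flt3, Csf2rb and Csf2rb2), against 28.6%, and 2 above (Il3ra and Il6ra), against 31.6%. AML 3 had 7 of 9 below, against 39.5%, and Kit above, against 41.9%. AML 4 had 9 of 9 below, against 33.3%, and none above, against 36.2%. AML 5 had 7 of 9 below, against 31.7%, and Il6st above, against 36.4%. AML 6 had 5 of 9 below, against 31.7%, and Kit above, against 34.8%. These are single libraries with no replicate, and the counts describe them only.

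**Figure D5:**
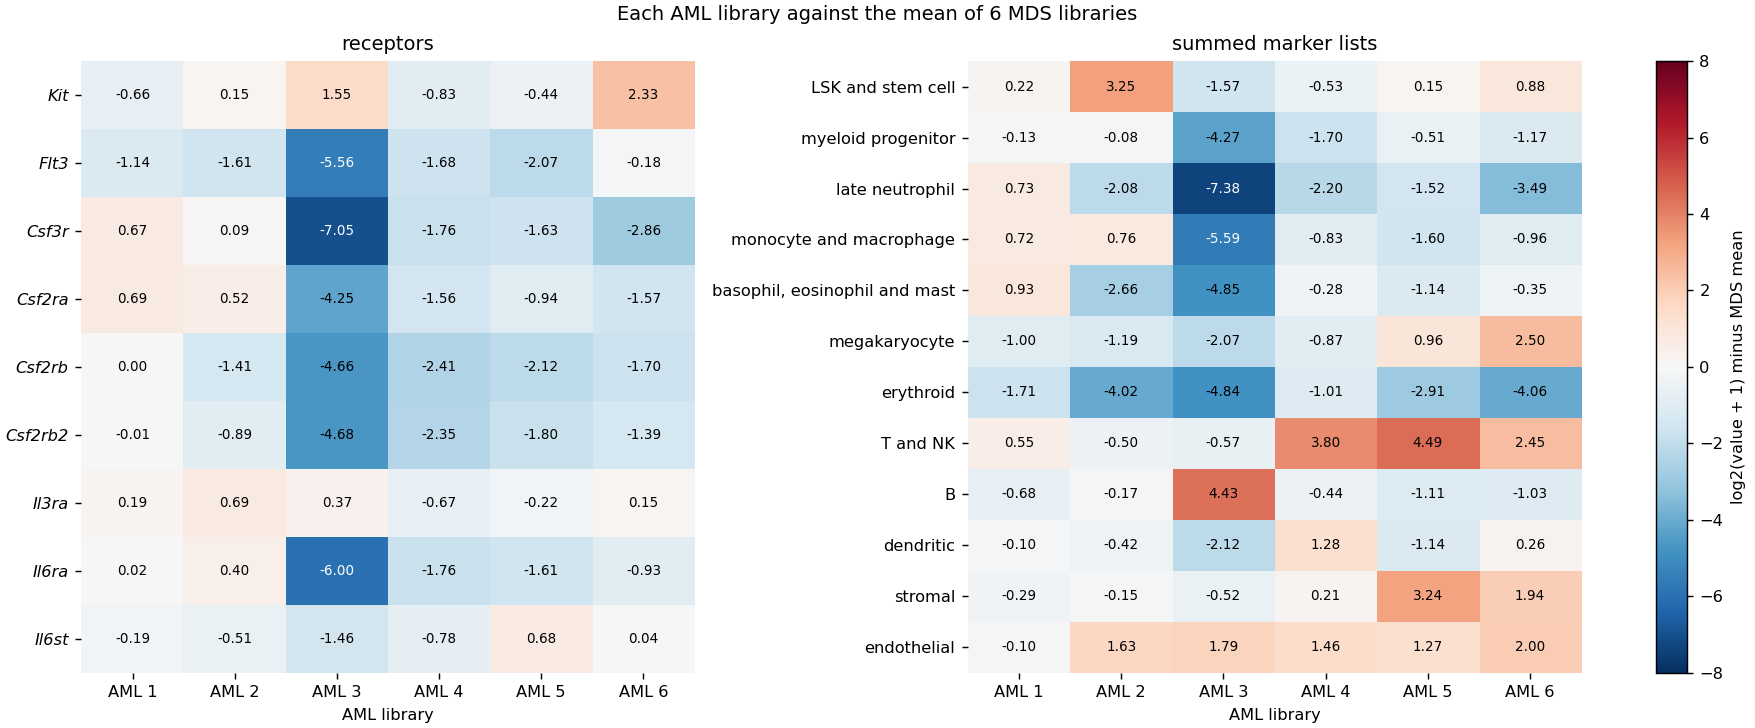
Difference of each AML library from the mean of the 6 MDS libraries on the log2(value + 1) scale, as numbers and colours (red higher, blue lower), for the 9 receptors (left) and for the sums of 12 marker lists (right). AML 3 has the lowest Csf3r (-7.05) and Il6ra (-6.00) beside the lowest late neutrophil sum (-7.38) and the highest B sum (4.43). AML 6 has the highest Kit (2.33) beside the highest megakaryocyte sum (2.50), most of which is the single gene Itga2b.

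Markers of mature and other cells also differed between these libraries, in part with the receptors. The late neutrophil sum (10 of 10 markers measured) was 61540 to 98812 in MDS, 122717 in AML 1 and 442 to 25664 in AML 2 to 6. The erythroid sum (7 of 9 measured) was 7063 to 23740 in MDS and 372 to 5291 in AML. The AML library with most neutrophil markers, AML 1, was also the one with most Csf3r, Csf2rb and Csf2rb2. AML 2 went the other way, with a late neutrophil sum of 17466, below the MDS range, beside Csf3r and Csf2ra within the MDS range and Il6ra above it. The monocyte and macrophage sums of AML 1 and AML 2 (3212 and 3312) lay above the MDS range (1616 to 2448). In AML 2 a single gene of that list, Csf1r, held 1965 of the 3312, against 230 to 424 in MDS. The sum of AML 2 therefore does not stand for its whole list. The myeloid progenitor sum of AML 2 (7250) lay within the MDS range (4000 to 10679). AML 3 had a B sum (7 of 9 measured) of 2300, against 84.6 to 147 in MDS, with Pax5, a B cell factor, at 208 and Cd3e at 0.957. AML 4 and AML 5 had T and NK sums (11 of 12 measured) of 2209 and 3575, against 87.1 to 214 in MDS, with Cd3e at 258 and 947. AML 6 had Itga2b, a megakaryocyte integrin that early progenitors also express, at 397, against 33.3 to 58.7 in MDS. Itga2b made up most of the megakaryocyte sum of AML 6 (472, against 68.1 to 107 in MDS). Gata2, a factor of stem and progenitor cells, was at 177 in AML 6, against 15.2 to 23.9 in MDS. AML 2 had Mecom, a stem cell factor, at 1022, against 0.742 to 1.98. The part of these cells in the receptor values was not tested.

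The receptors that were low together in AML were looked at for shared promoter letters. RefSeq promoters (GRCm38.p6) matched 8 of the 9 genes, all but Csf2rb, and the 250 bases before each start were searched on both strands for 4 motifs: GAGGAAG for PU.1, TTNCNNAA for C/EBP, TGTGGT for RUNX and AGATAA for GATA, all factors of myeloid or progenitor cells. PU.1 letters were found in Csf3r, Csf2rb2, Kit and Csf2ra, and 10.6% of 32851 promoter windows of this length hold them. C/EBP letters were in Csf2ra, Il3ra and Il6ra, and 36.8% of windows hold them. GATA letters were in Il6ra alone, against 10.0% of windows, and RUNX letters in none of the 8, against 14.0%. A match is a description of letters and not of a bound site. Of the 8, Csf3r, Csf2ra, Csf2rb2 and Il6ra lay below the MDS range in AML 3, 4, 5 and 6, and Csf2rb2 in AML 2 as well. The windows of 3 of these receptors, Csf2ra, Csf2rb2 and Il6ra, are shown with motif letters in capitals. They lie at chr19:61228419-61228668, chr15:78305722-78305971 and chr3:89913197-89913446, all on the minus strand, and are written 5′ to 3′ towards the start.
Csf2ra promoter: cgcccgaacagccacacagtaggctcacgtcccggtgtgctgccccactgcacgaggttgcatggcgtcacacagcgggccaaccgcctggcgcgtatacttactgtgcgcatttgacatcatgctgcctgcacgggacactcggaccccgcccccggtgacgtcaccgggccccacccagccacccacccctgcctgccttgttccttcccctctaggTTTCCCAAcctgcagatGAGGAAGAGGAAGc
Csf2rb2 promoter: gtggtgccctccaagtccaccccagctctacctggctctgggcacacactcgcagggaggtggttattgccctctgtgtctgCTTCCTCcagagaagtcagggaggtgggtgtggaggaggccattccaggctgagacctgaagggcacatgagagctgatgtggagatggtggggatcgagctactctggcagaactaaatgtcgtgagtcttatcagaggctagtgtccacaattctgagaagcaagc
Il6ra promoter: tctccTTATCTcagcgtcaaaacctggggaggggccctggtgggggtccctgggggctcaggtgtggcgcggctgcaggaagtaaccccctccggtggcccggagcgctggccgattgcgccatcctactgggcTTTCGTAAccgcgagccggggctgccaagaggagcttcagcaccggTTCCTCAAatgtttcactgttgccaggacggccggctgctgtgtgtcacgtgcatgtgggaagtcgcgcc

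In Csf2ra the capitals at the end of the window are 2 overlapping PU.1 matches, from -14 to -8 and from -8 to -2 before the start, after a C/EBP match from -31 to -24. In Csf2rb2 they are 1 PU.1 match on the other strand, from -168 to -162. In Il6ra they are a GATA match on the other strand from -245 to -240 and C/EBP matches from -116 to -109, which reads as the motif on both strands, and from -70 to -63. RUNX has no capitals in the 3 windows. The starts used here are those of RefSeq. By the gene position given above, the last bases of the Csf2ra window, with the match from -8 to -2, lie inside the gene. The windows of Csf3r, Kit and Il3ra also reach into their genes by the positions given above.

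Whether chains of one receptor varied together was examined for 6 pairs in each table, 12 relations in all, by Pearson's r and Spearman's rho of log2(value + 1) over 12 libraries with two-sided permutation tests (100000 resamples, p adjusted over the 12). Kit and Flt3 were related in LSK cells (r = 0.96, adjusted p = 6.0e-05; rho = 0.94, adjusted p = 0.000300), and r was 0.90 without the 2 libraries farthest from the median and 0.98 for deviations from group means. It was 0.94 without WT 2, WT_X 3 and EAP 1. In marrow the pair was not related (r = -0.24, adjusted p = 0.596; rho = 0.14, adjusted p = 0.966). Unadjusted p-values for r were 1.0e-05, the smallest these resamples can give, and 0.397.

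Csf2rb and Csf2rb2 were related in marrow (r = 0.99, p = 1.0e-05, adjusted p = 6.0e-05; rho = 0.99, adjusted p = 0.000120), also within MDS (r = 0.94) and within AML (r = 0.99), with the sharing of reads between the copies in mind. In LSK cells r was 0.89 (p = 0.00341, adjusted p = 0.00818) but rho 0.45 (adjusted p = 0.336), and without WT 2, WT_X 3 and EAP 1 r was -0.33, so that relation rests on those libraries. Il3ra and Csf2rb were related in LSK cells (r = 0.81, p = 0.000660, adjusted p = 0.00264; rho = 0.92, adjusted p = 0.000600), and r was 0.69 without the 2 farthest libraries and 0.87 without WT 2, WT_X 3 and EAP 1. In marrow they were not (r = -0.08, adjusted p = 0.861; rho = -0.06, adjusted p = 0.966). Csf2ra and Csf2rb were related in marrow by r (0.89, p = 0.000980, adjusted p = 0.00294) and not by rho (0.67, adjusted p = 0.0604), with r = 0.68 without AML 3 and AML 6. Within MDS r was 0.46 and within AML 0.94.

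The remaining relations did not pass. Il6ra and Il6st had r = 0.09 in LSK cells (adjusted p = 0.852; rho = -0.00, adjusted p = 1.00). In marrow they had r = 0.59 (adjusted p = 0.0918; rho = 0.09, adjusted p = 0.966), which became -0.56 without AML 3 and AML 4. Il3ra and Csf2rb2 had r = 0.58 in LSK cells (adjusted p = 0.0918; rho = 0.27, adjusted p = 0.673) and r = -0.06 in marrow (adjusted p = 0.861; rho = -0.05, adjusted p = 0.966). Csf2ra and Csf2rb had r = -0.15 in LSK cells (adjusted p = 0.852; rho = 0.34, adjusted p = 0.551). The libraries behind each relation share group, normalisation and cell makeup, and the part of these was not tested.

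The genes most like each receptor, by r over the 12 libraries of a table among genes with a mean of at least 5, are given without inference. In marrow, Csf3r was nearest to Trpm2 (r = 0.994), Pi16 (0.993) and Sfxn5 (0.989), and Csf2rb to Csf2rb2 (0.992), Slc25a24 (0.986) and Fam217b (0.985). Kit was nearest to Cep170b (0.964), Kif17 (0.935) and Adgrg1 (0.935), and Flt3 to Tacc1 (0.960), Btla (0.958) and Cracr2a (0.955). Among those nearest to Il6ra were F13a1 (0.993) and Fes (0.992). Il3ra was nearest to Ddx58 (0.90), Trim30d (0.889) and Slc7a7 (0.863), and Il6st to Tial1 (0.859), Alcam (0.854) and Fundc2 (0.853). In LSK cells Kit was nearest to Rbpj (0.993), Rbl2 (0.990) and Pi4ka (0.984), and Flt3 to Pdk1 (0.979), Hps5 (0.977) and Arhgef3 (0.976). Il3ra was nearest there to Rab44 (0.976), Cd55 (0.975) and Tnfaip2 (0.960). The length trend of WT 2, WT_X 3 and EAP 1 enters every one of the LSK values.

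Other genes of these pathways were counted over 6 lists. Of the ligands, 5 of 15 were measured well enough in marrow and none passed between AML and MDS (median log2 difference -0.21, beside 0.04 for all genes). Osm, a ligand of the interleukin-6 family, was nearest to passing, at 86.7 ± 100 in AML and 202 ± 55.8 in MDS (log2 difference -1.64 ± 0.44, limma adjusted p = 0.0553). Of 20 other growth factor receptors 18 were measured, 1 rose and 1 fell, where 0.992% of all genes rose and 2.20% fell. Both calls end without MDS 1, 2, 3, 5 or 6, AML 5 or AML 6, since no gene then passed. Il2rg, the common gamma chain of lymphoid cytokine receptors, rose by 1.35 ± 0.29 (adjusted p = 0.0421), from 41.6 ± 15.7 to 106 ± 32.8 (SD, n = 6), with only the lowest AML library (60.2) below the highest MDS library (65.2). Beside it stood the B sum of AML 3 (2300) and the T and NK sums of AML 4, 5 and 6 (2209, 3575 and 870), all above the MDS ranges. AML 2, with the highest Il2rg (147), had both sums within the MDS ranges (B 93.4, T and NK 111). AML 1, with the lowest Il2rg, had a T and NK sum of 233, above the range. The part of these cells in the Il2rg values was not tested. Epor, the erythropoietin receptor, fell by 3.02 ± 0.74 on the log2 scale (adjusted p = 0.0480), from 81.5 ± 34.3 to 16.0 ± 16.7, without overlap (lowest MDS library 47.4, highest AML library 43.5), beside the lower erythroid sums given above.

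None of 11 JAK kinases and STAT factors passed between AML and MDS (median 0.14). Stat5a, which carries signals of most of these receptors, was nearest, at 117 ± 73.1 in AML and 53.1 ± 2.94 in MDS (log2 difference 0.91 ± 0.32, limma adjusted p = 0.0979). None of 32 adaptors and effectors passed (median -0.31), with the kinase Fyn at 1.42 ± 0.45 (adjusted p = 0.0804). None of 28 measured inhibitors passed (median 0.08), and Cish, an inhibitor that STAT5 induces, came nearest at -2.23 ± 0.56 (adjusted p = 0.0504). Of 18 measured STAT target genes none passed, and their median was -0.79. Bcl2l1, which encodes an anti-apoptotic protein, was at 97.6 ± 84.9 in AML and 265 ± 123 in MDS (log2 difference -1.77 ± 0.51, adjusted p = 0.0675). Cish and Osm stand on 2 of these lists each.

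In LSK cells no gene of the 6 lists passed in any of the 4 comparisons with all libraries. Csf1r had 28.4, 60.7 and 50.8 in EAP_E, above the 9.01, 14.8 and 17.6 of EAP, with a difference of 1.67 ± 0.56 (limma adjusted p = 0.909). Akt1 was at 54.0 ± 23.6 in EAP_E and 4.76 ± 3.65 in WT_X (difference 3.41 ± 0.99, adjusted p = 1.000). Between EAP_E and WT_X the medians of the 6 lists lay between -0.11 and 0.30, beside 0.01 for all genes.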

How the data were processed

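Per the labels, TRIzol RNA went into strand-marking TruSeq mRNA libraries (Illumina). The submitters' processing notes name bcl2fastq, FastQC, TopHat, SAMtools and edgeR, and the mm10 build; no source used here gives the counting program, annotation or scaling. The LSK and marrow values deposited by the authors are a normalised signal per gene (named CPM, although totals differ between libraries); the stromal values deposited by the authors are TPM.

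Each comparison was tested over all genes on log2(value + 1) by limma (version 3.58.1, run under R 4.3.3; moderated variances with a mean trend), which understates the change of low genes. A gene needed a value of at least 1 in 3 libraries, or in 6 for AML against MDS. One fit over all LSK groups pooled their variances. Permutation tests used NumPy 2.4.6 under Python 3.11.15. In marrow, 136 rows that repeated a gene under an alias were merged. The annotation for positions and lengths was GENCODE M21 (GRCm38, the assembly of mm10), and length is that of the longest coding transcript. All 9 receptors passed the low-value filter in LSK cells and marrow. Sources do not say whether libraries are separate mice throughout, so p-values measure the spread between these samples.

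The receptors, gene lists and tests were chosen with earlier results of these data known. All receptors are named; of each list up to 4 passing genes by smallest p, or else up to 3 that did not pass, could be named. Il2rg and Epor are the 2 that passed. Some genes that these rules name are not reported here. Single marker genes of the AML libraries were picked after their values were seen. The limma test was tried on simulated data. Alternatives covered the pseudocount (0.1), the filter (none), the scaling (median of ratios), a replicate block, each library left out, fits on the compared groups alone and, added after seeing the data, fits without or with a term for WT 2, WT_X 3 and EAP 1, without AML 3, 4 and 5, and with each library's trend on transcript length removed. In stromal cells same-numbered libraries deviated together (r = 0.559, 0.705 and 0.738); in LSK cells and marrow the numbers did not pair them.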

Additional observations from a re-analysis of the deposited data

Results flagged for a closer look

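Csf2rb in AML 1 was 501, while the next highest AML library had 187, a gap of 0.651 of the whole range of the 6 AML values. Of 18 groups of values examined in this way (9 receptors in MDS and in AML), this was the only one set apart, and chance alone sets apart about 1 in 20. AML 1 also had the highest late neutrophil sum of all marrow libraries (122717), and the part of neutrophils in its Csf2rb value was not tested.

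Kit was measured in cultured stromal cells, which the comparisons above do not use. After ENU it averaged 5.31 TPM, with 6.74, 5.05 and 4.15 in the 3 libraries, and the mock-treated libraries had 4.02, 2.71 and 1.44. The groups did not overlap, by a margin of 4.15 against 4.02, and the log2 difference was 0.80 ± 0.32 (SE, limma adjusted p = 1.000). Of the 12089 genes tested in stroma, 7.07% had groups that did not overlap. Each ENU library lay above the mock library of the same number, and this fit does not use the numbers.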

How the results depend on the processing

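The count of receptors that passed stayed at 0 in all 6 receptor comparisons with the smaller pseudocount, without the filter, after rescaling by median of ratios and with the replicate block, and in the fits on the compared groups alone that were run for LSK cells. Without WT 2, WT_X 3 and EAP 1 together, the count became 2 for WT_X against WT (Kit and Il6st). The fit without them called 490 of 11730 genes. Leaving out single libraries, the count of receptors ranged from 0 to 2 for AML against MDS and was 0 elsewhere. The 2 came without AML 1, where 2478 of 11292 genes passed. Between EAP and WT_X, Flt3 turned from -0.73 to 0.14 without EAP 1 (-1.27 to 0.14 over single libraries left out). Between EAP_E and EAP, Kit turned to -0.45 and Flt3 to -0.63 without EAP 1 and without the 3 libraries, with leave-one-out ranges of -0.45 to 0.75 and -0.63 to 0.79, and with a term for them Kit was at -0.24 and Flt3 at -0.29. Between AML and MDS, Kit turned to -0.05 without AML 6 (range -0.05 to 0.58), and Il3ra to -0.04 without MDS 3 or AML 2 (range -0.04 to 0.24). The cause of these turns was not tested, beyond the absence of those libraries. Without WT 2, WT_X 3 and EAP 1 the correlation in LSK cells turned to -0.33 for Csf2rb with Csf2rb2, 0.71 for Csf2ra with Csf2rb, -0.39 for Il3ra with Csf2rb2 and -0.30 for Il6ra with Il6st.

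With the replicate number as a block, AML against MDS called 139 genes in place of 360, and the block changed no receptor's call in any comparison, stromal cells included. In LSK cells same-numbered libraries correlated between -0.727 and 0.694 and in marrow between -0.165 and 0.243, so the samples share only a number there. A pseudocount of 0.1 called 146 genes between AML and MDS. Rescaling moved no median of all genes by over 0.1 on the log2 scale. No LSK library met the fixed rule for standing apart, so that alternative gave no value there. A fit with edgeR on reads recovered from the marrow values was planned and not run. Depth is unknown for LSK and stromal cells, and the low Il6ra and Csf2rb2 of LSK cells carry the least precision.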

Other observations

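Cultured marrow stromal cells, from mice given 100 mg/kg ENU or ethanol as a mock, are a source of ligands for these receptors. Kitl, the ligand of Kit, had 111, 177 and 93.8 TPM in mock and 187, 176 and 110 TPM in ENU libraries. Csf1, the ligand of Csf1r, was far higher, at 1273, 1226 and 1617 TPM in mock and 943, 1143 and 1083 TPM after ENU, with no overlap and a log2 difference of -0.37 ± 0.16 (SE, limma adjusted p = 1.000). Flt3l stood between 7.19 and 11.5 TPM in all 6 libraries. Csf2, Csf3 and Il3 did not exceed 0.10 TPM in any library. Il7, the ligand of the interleukin-7 receptor, had 4.18, 6.15 and 2.39 TPM in mock and 8.38, 7.07 and 7.78 TPM after ENU, again with no overlap (log2 difference 0.80 ± 0.29, limma adjusted p = 1.000), and was the 1 ligand with an unadjusted p under 0.05. None of the 8 measured ligands passed, as no gene of 12089 did, while 312 genes reached an unadjusted p of 0.05 and 7.07% had groups that did not overlap.

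Of the receptors, Il6st was the most abundant in stroma, at 269, 364 and 271 TPM in mock and 215, 305 and 145 TPM after ENU. Il3ra had 39.9, 36.0 and 67.9 TPM in mock and 37.3, 30.1 and 38.2 TPM after ENU. Flt3 was listed at 0 in all 6 libraries. Csf3r stayed between 0.295 and 0.696 TPM, and Csf2rb2 between 0.189 and 0.666 TPM.

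Among the other growth factor receptors, Il7r, the interleukin-7 receptor of early lymphoid cells, was 645 in AML 3 and 632 in AML 4, against 16.8 to 32.6 in MDS. AML 6 also lay above the MDS range at 76.9, AML 5 inside it at 20.1, and AML 1 and AML 2 below it at 8.14 and 9.43. It was singled out after its values were seen.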
